A study of Homo sapiens with 12 samples.

Results

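Expression of 8 tumor suppressor genes that are recurrently altered in leiomyosarcoma was examined: *RB1*, *CDKN2A*, *CDKN2B*, *ATRX*, *DAXX*, *MED12*, *NF1*, and *TSC2*. They were chosen by name, as the rows of the raw count table whose symbol equals one of these, and each symbol matched 1 row. The table holds 60649 genes, of which 30051 had at least 1 count, and all 8 genes were among the 21114 that passed the filter on low counts. In all, 12 libraries of bulk RNA came from 2 uterine leiomyosarcoma (uLMS) lines, SK-LMS-1, from a metastasis to the vulva, and SK-UT-1B, from a primary tumor and described as epithelial-like in shape. Both lines are labelled as wild type. Cells were exposed for 72 h to DMSO, the vehicle, to the gamma secretase inhibitor MK-0752 (SK-LMS-1 only), or to MK-0752 with gemcitabine, an antimetabolite, and docetaxel, a microtubule poison (the combination), each at its IC30, the concentration that lowers viability moderately, so the dose of MK-0752 was lower in the combination than alone. SK-LMS-1 had 4 DMSO libraries in 2 numbered sets of 2 (set 2 and set 4), 2 MK-0752 libraries of set 2 and 2 combination libraries of set 4. SK-UT-1B had 2 DMSO libraries of set 4 and 2 combination libraries of set 3, so that treatment and set cannot be told apart in SK-UT-1B.

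These genes act at few points of cell growth. RB1 is the retinoblastoma protein, which holds E2F transcription factors inactive until cyclin-dependent kinases phosphorylate it. *CDKN2A* encodes p16INK4a, an inhibitor of CDK4 and CDK6, and, from another first exon, p14ARF, which stabilizes p53, and its neighbour *CDKN2B* encodes the related inhibitor p15INK4b. ATRX and DAXX form a chaperone that places histone H3.3 at telomeres and repeats, and their loss in sarcomas goes with alternative lengthening of telomeres. MED12 activates the kinase module of Mediator, the complex between transcription factors and RNA polymerase II, and is often mutated in uterine leiomyomas. NF1 (neurofibromin) switches RAS off, and TSC2 (tuberin) switches off RHEB, the activator of mTORC1.

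Total counts lay between 25250057 and 40709885 per library. No 2 libraries were identical, and the pairs of a group held 54 to 845 genes without a read in one member but with 50 or more in the other. The labels do not say whether the 2 libraries of a group came from separate cultures, so p-values measure the spread between these libraries only. In SK-LMS-1, 11 of 12 smooth muscle markers exceeded 3 counts in some library (all but *DES*), with a summed level of 1240 to 1610 CPM (each gene's share of the library's reads, scaled by edgeR's TMM factors and given per 1000000). In SK-UT-1B 10 of 12 did (not *MYH11* and *MYOCD*), with a sum of 154 to 265 CPM. Mean levels in SK-LMS-1 after DMSO ran from 496 CPM for *MYLK* to 0.0 for *MYOCD* and *DES*, with *ACTA2* at 18.1. Of the 11 markers that passed the filter, 9 were on the side of SK-LMS-1 after DMSO. Only *DES* was on the other side, with a mean of 7.55 CPM in SK-UT-1B. Epithelial markers summed to 172 to 275 CPM in SK-LMS-1, with *CDH1* at 3 counts or fewer, and to 0.292 to 1.14 CPM in SK-UT-1B, where *EPCAM*, *CDH1*, *KRT8*, and *KRT7* did not exceed 3 counts. Sums over 3 leukocyte markers reached 2.47 CPM and over 3 endothelial markers 9.4 CPM, and the part of any of these in the differences between the lines was not tested.

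*CDKN2A* (chr9:21967752-21995301, minus strand, hg38) and *CDKN2B* (chr9:22002903-22009305, minus strand) are paralogs that lie next to each other. Of the exonic 75-base windows of *CDKN2A*, the length of a read, 10.8% also occur in other genes on either strand, nearly all of them in the antisense RNA *CDKN2B-AS1*. For *CDKN2B* the share was 0.15%.

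Sequences are shown here for *CDKN2A*, *CDKN2B*, and *NF1*, the members with the widest gaps between the lines. Their promoters are given as the 300 bases from 250 before to 50 after a RefSeq transcript start (GRCh38.p14). They are read on the gene's strand, with each CpG dinucleotide, the site of DNA methylation, in capitals. *CDKN2A* has 2 starts in the table, an upstream one (chr9:21995275-21995574) and one at the p16INK4a first exon (chr9:21974808-21975107). *CDKN2B* (chr9:22009256-22009555) and *NF1* (chr17:31094727-31095026) have 1 each:
CDKN2A upstream start: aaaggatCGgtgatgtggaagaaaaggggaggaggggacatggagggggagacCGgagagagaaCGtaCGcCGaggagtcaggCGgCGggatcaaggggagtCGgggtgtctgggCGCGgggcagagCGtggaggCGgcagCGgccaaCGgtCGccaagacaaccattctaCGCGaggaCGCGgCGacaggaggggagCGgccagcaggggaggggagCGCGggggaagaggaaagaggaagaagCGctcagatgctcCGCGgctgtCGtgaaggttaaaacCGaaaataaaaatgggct
CDKN2A p16INK4a start: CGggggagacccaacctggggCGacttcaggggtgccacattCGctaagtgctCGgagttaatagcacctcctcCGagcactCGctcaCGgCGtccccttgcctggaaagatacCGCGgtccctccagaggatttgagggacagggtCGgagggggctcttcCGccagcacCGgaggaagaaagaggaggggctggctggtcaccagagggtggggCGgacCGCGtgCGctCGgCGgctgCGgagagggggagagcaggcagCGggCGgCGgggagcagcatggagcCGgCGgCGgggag
CDKN2B start: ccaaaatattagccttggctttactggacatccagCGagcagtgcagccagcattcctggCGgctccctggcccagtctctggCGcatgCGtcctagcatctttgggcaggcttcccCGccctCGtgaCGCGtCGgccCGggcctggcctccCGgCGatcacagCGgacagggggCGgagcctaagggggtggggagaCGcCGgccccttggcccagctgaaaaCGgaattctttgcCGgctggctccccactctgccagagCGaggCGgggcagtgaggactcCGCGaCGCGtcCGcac
NF1 start: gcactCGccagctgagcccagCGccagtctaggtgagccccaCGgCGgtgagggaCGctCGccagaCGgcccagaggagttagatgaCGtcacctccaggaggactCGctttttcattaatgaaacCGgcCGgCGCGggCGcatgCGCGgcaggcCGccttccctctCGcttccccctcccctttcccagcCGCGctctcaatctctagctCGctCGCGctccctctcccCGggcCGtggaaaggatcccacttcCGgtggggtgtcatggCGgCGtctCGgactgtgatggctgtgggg
The 4 windows hold 28, 26, 25, and 29 CpG sites in this order, against a median of 14 over the 35116 RefSeq promoters of this length. Of all these promoters, 73.8%, 69.9%, 68.0%, and 75.8% have fewer sites, so such numbers are common. Among the other members, the windows of *TSC2* hold 36 and 42 sites, that of *MED12* 20, and that of *RB1* 0. The GC box GGGCGG occurred 2 times at the p16INK4a start and 2 times in *CDKN2B* on either strand, and 45.0% of all promoters hold it. The cyclic AMP response element TGACGTCA, held by 1.85% of all promoters, occurred 1 time in *NF1*. The E2F motifs TTTCCCGC and TTTGGCGC, one or other of which 2.27% of promoters hold, occurred in none of the windows of the 6 members with a RefSeq promoter, of which the one of *RB1* lies at an internal start. *ATRX* and *DAXX* had no entry. Methylation and factor binding were not measured.

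*CDKN2B* was the member with the widest gap between the lines. SK-LMS-1 had 80.6, 66.6, 52.4, and 74.9 CPM after DMSO, 69.8 and 58.1 with MK-0752, and 72.3 and 70.0 with the combination. SK-UT-1B had 0.312 and 0.318 CPM after DMSO and 0.0 and 0.745 after the combination, which is 9, 12, 0, and 21 reads against 1292 to 2891 reads in SK-LMS-1. The lowest SK-LMS-1 library was far above the highest SK-UT-1B library, whatever the treatment. After DMSO, *CDKN2B* was 215-fold higher in SK-LMS-1 (log2FC 7.75, SE 0.80, 95% interval by the normal approximation 6.17 to 9.32), with a Benjamini-Hochberg adjusted p of 6.29e-05 in edgeR's quasi-likelihood test. After the combination the log2FC was 7.70 (SE 0.82, edgeR adjusted p = 0.000103). This second value rests on 0 and 21 reads in SK-UT-1B and ran from 6.54 to 14.18 over 10 alternatives. The highest is a fitted value at 0 reads and not a bound.

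*CDKN2A* was also higher in SK-LMS-1, but was read in every library of both lines. Its levels in SK-LMS-1 were 31.0, 44.1, 45.1, and 34.9 CPM after DMSO, 44.4 and 43.6 with MK-0752, and 47.9 and 40.9 with the combination. SK-UT-1B had 9.94 and 8.36 CPM after DMSO and 3.2 and 6.81 after the combination. Thus the lines did not overlap, and the lowest library was a SK-UT-1B combination library. The difference after DMSO was 4.24-fold (log2FC 2.08, SE 0.30, edgeR adjusted p = 1.09e-05), and after the combination 8.9-fold (log2FC 3.15, SE 0.34, edgeR adjusted p = 3.53e-07). The latter was 2.68 without replicate 1 and 3.79 without replicate 3 of the SK-UT-1B combination, and was called in both fits. Because p16INK4a and p14ARF transcripts share exons and 1 count covers the gene, their parts cannot be told apart. The mean levels also differed in ratio. In SK-LMS-1 DMSO libraries *CDKN2B* had 68.6 ± 12.2 CPM (SD, n = 4) and *CDKN2A* 38.8 ± 6.9. In SK-UT-1B DMSO libraries *CDKN2A* had 9.15 ± 1.12 CPM (n = 2) and *CDKN2B* 0.315 ± 0.00475. The order within SK-LMS-1 depends on the scale. Per kb of the longest transcript *CDKN2A* had 36.9 ± 6.56 CPM there and *CDKN2B* 17.8 ± 3.18.

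*NF1* (chr17:31094927-31382116, plus strand) went the other way. SK-LMS-1 had 57.7, 47.7, 35.5, and 45.9 CPM after DMSO, 55.8 and 48.9 with MK-0752, and 51.4 and 56.5 with the combination, against 341 and 309 in SK-UT-1B after DMSO and 252 and 268 after the combination. No library of one line came near the other. After DMSO, *NF1* was 7.01-fold lower in SK-LMS-1 (log2FC -2.81, SE 0.14, edgeR adjusted p = 3.75e-12) and 4.81-fold lower after the combination (log2FC -2.27, SE 0.18, edgeR adjusted p = 4.09e-09). Exonic 75-base windows of *NF1* were shared with other genes for 0.937%, and the 12 *NF1* pseudogenes of the table had 0 counts throughout.

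**Figure D1:**
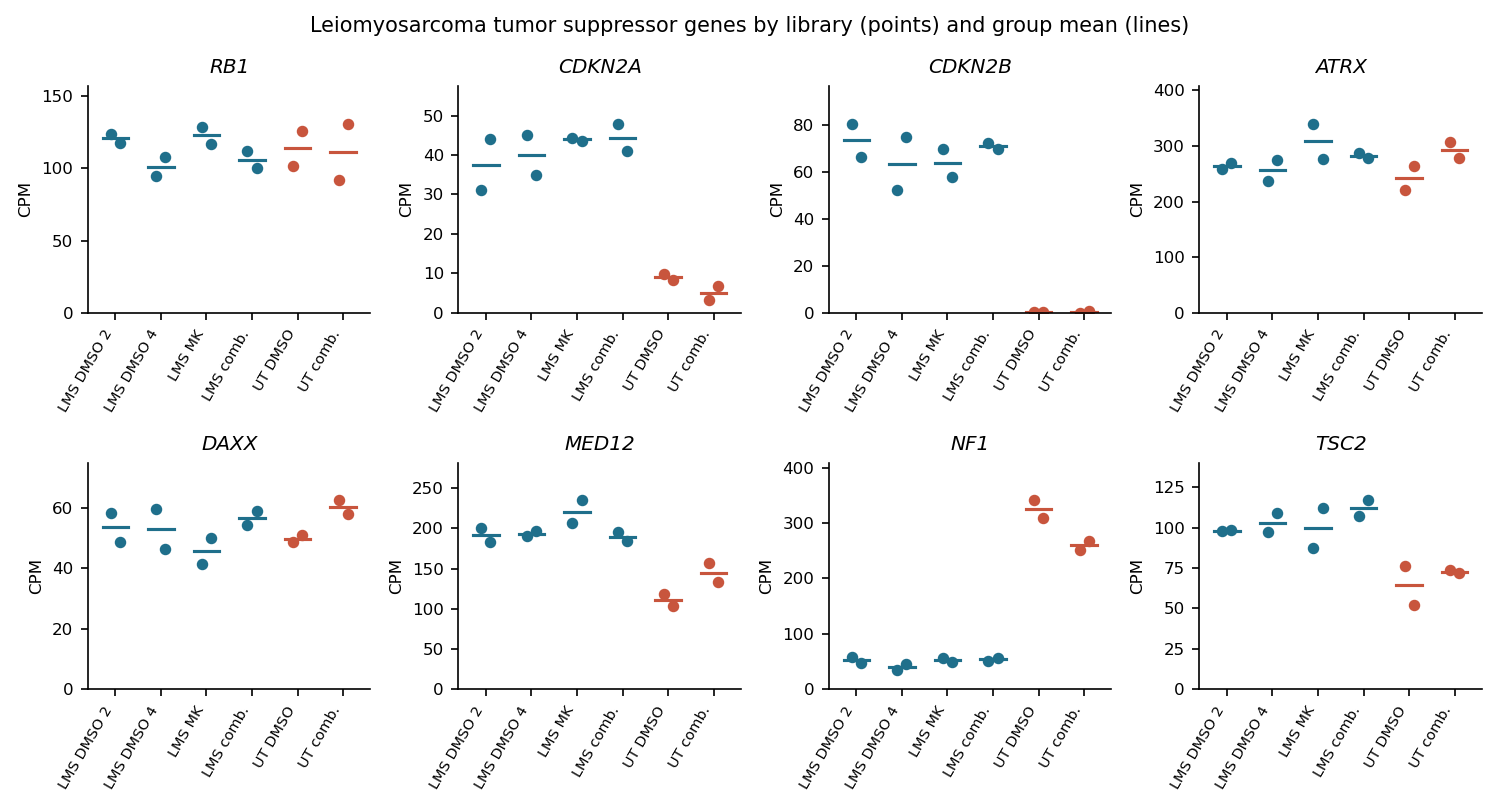
CPM (vertical axes, from 0, TMM scaled) of the 8 genes, with 1 point per library and a line at each group mean, for SK-LMS-1 (LMS, blue) and SK-UT-1B (UT, red) after DMSO (with its set number), MK-0752 (MK), or the combination (comb.). *CDKN2A* and *CDKN2B* sit low in every SK-UT-1B library (at most 9.94 and 0.745 CPM), *NF1* sits high there (at least 252 CPM), and *RB1*, *ATRX*, and *DAXX* overlap between the lines.

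With these, 3 of the 8 genes were called between the lines after DMSO (called: log2FC of 1 or more in size with an adjusted p below 0.05), 2 higher in SK-LMS-1 and 1 lower, in a comparison that called 31.1% of all genes tested. After the combination the same count was 3, again 2 higher and 1 lower, where 25.4% of all genes were called. Counted by the adjusted p alone, at any fold, 5 members differed after DMSO (41.0% of all genes) and 4 after the combination (32.9%). The median log2FC of the 8 genes was 0.38 after DMSO and 0.17 after the combination, beside 0.0 and 0.02 over all genes. Differences between the lines were thus common among all genes, and the counts of members are to be read against that.

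*MED12* (chrX:71118543-71144103, plus strand) and *TSC2* (chr16:2047967-2089491, plus strand) were the members with an adjusted p under the threshold but a log2FC under 1. *MED12* had 201, 183, 190, and 197 CPM in SK-LMS-1 after DMSO and 119 and 103 in SK-UT-1B. The log2FC was 0.79 (SE 0.14, edgeR adjusted p = 0.000106), and after the combination, with 195 and 184 against 157 and 133 CPM, it was 0.38 (SE 0.16, edgeR adjusted p = 0.0685). *TSC2* had 97.7, 98.7, 97.4, and 109 CPM in SK-LMS-1 after DMSO and 76.5 and 52.0 in SK-UT-1B. Its log2FC of 0.65 (SE 0.18) had an edgeR adjusted p of 0.00529, which became 0.229 without the second SK-UT-1B DMSO library, with 1 library left in that group (edgeR or DESeq2 adjusted p of 0.00164 to 0.229 over 12 alternatives). After the combination it was 0.62 (SE 0.20, edgeR adjusted p = 0.0196), with 107 and 117 CPM against 73.8 and 71.9. Without replicate 1 or 2 of the SK-LMS-1 combination this p was 0.0632 or 0.166 (edgeR or DESeq2 adjusted p of 0.0105 to 0.166 over 10 alternatives). For both genes the lines did not overlap. The last exons of *TSC2* overlap *PKD1* on the other strand, with which 710 of its 23493 windows are shared, and the strand setting of the counting is not given in the sources used here.

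*RB1* (chr13:48303744-48599436, plus strand), *ATRX* (chrX:77504880-77786233, minus strand), and *DAXX* (chr6:33318558-33323016, minus strand) overlapped between the lines. *RB1* had 124, 118, 94.7, and 108 CPM in SK-LMS-1 after DMSO and 102 and 126 in SK-UT-1B. The log2FC was -0.04 (SE 0.16), with a 95% interval of -0.36 to 0.28 that leaves room for only small differences in either direction. *ATRX* had 259, 269, 237, and 275 CPM against 221 and 264, with a log2FC of 0.10 (interval -0.16 to 0.36). *DAXX* had 58.5, 48.9, 59.7, and 46.4 CPM against 48.8 and 51.0, with a log2FC of 0.10 (interval -0.26 to 0.45). After the combination the 3 values were -0.07, -0.05, and -0.09. For *RB1*, 96.3% of all genes tested had a larger absolute log2FC between the lines after DMSO, and for *ATRX* and *DAXX* 93.8% and 94.0%. Transcripts of all 3 were thus read at like levels in both lines; counts of a whole gene carry no information on sequence changes, on the protein or on its phosphorylation.

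The genes were set against each other per kilobase of exon, since a longer transcript gives more reads. On the scale of CPM per kb of all annotated exons, the order in SK-LMS-1 after DMSO was *RB1* (17.3 ± 1.99, SD, n = 4), *DAXX* (17.3 ± 2.17), *CDKN2B* (17.2 ± 3.06), *ATRX* (11.4 ± 0.745), *MED12* (11.1 ± 0.468), *CDKN2A* (9.98 ± 1.78), *TSC2* (4.91 ± 0.277), and *NF1* (1.14 ± 0.222). The first 3 lay within their spread of each other, as did the next 3. In SK-UT-1B *RB1* (17.7 ± 2.57, n = 2) and *DAXX* (16.2 ± 0.501) again came first, within their spread, followed by *ATRX* (10.7 ± 1.36), *NF1* (7.9 ± 0.557), *MED12* (6.4 ± 0.637), *TSC2* (3.13 ± 0.846), *CDKN2A* (2.35 ± 0.288), and *CDKN2B* (0.0787 ± 0.00119). There *TSC2* and *CDKN2A* lay within their spread. Per kb of the longest transcript alone the order changed, with *CDKN2A* first in SK-LMS-1 (36.9 ± 6.56). At the top in SK-UT-1B were *NF1* (26.0 ± 1.84), *RB1* (23.9 ± 3.47), and *ATRX* (21.7 ± 2.76), within their spread. The last place of *NF1* in SK-LMS-1 (3.74 ± 0.73) and of *CDKN2B* in SK-UT-1B (0.0817 ± 0.00123) held on both scales.

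None of the 8 genes passed the thresholds after any treatment. In SK-UT-1B 0 of 8 were called after the combination, where 0.559% of all genes were, and 2 had an unadjusted p under 0.05, *CDKN2A* and *MED12*, as did 10.5% of all genes. *CDKN2A* went from 9.94 and 8.36 CPM after DMSO to 3.2 and 6.81, a log2FC of -0.88 (SE 0.32, edgeR adjusted p = 0.282). *MED12* went from 119 and 103 to 157 and 133 CPM, a log2FC of 0.39 (SE 0.16, edgeR adjusted p = 0.349). *NF1* had a log2FC of -0.32 (SE 0.17), *ATRX* and *DAXX* of 0.27 each, *TSC2* of 0.18, and *RB1* of -0.03. *CDKN2B*, with so few reads, had an interval of -1.91 to 2.12. The 2 combination libraries differ. Without replicate 1 the log2FC of *CDKN2A* was -0.45, and without replicate 3 (6.81 CPM of *CDKN2A*, 21 reads of *CDKN2B*) it was -1.51 with an edgeR adjusted p of 0.00149 (0.00149 to 1.0 over 10 alternatives). That fit called 4.3% of all genes, holds 1 treated library that is assumed to vary like the other groups, and says nothing of the spread within the treated group. It also called *CDKN2B*, on 0 reads against 9 and 12 after DMSO. The treated and DMSO libraries did not overlap for 5 of the 8 genes, 3 of them higher and 2 lower, beside 32.1% of all genes.

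In SK-LMS-1, MK-0752 gave log2FC between -0.23 (*DAXX*) and 0.23 (*CDKN2A*), and the lowest edgeR adjusted p was 0.806. Of the 8 genes 0 were called, against 0.251% of all genes, and 0 had an unadjusted p under 0.05. Libraries did not overlap for *ATRX*, at 340 and 277 CPM after MK-0752 and 259 and 269 in DMSO set 2, and for *MED12*, at 207 and 235 against 201 and 183, which is 2 of 8 beside 34.5% of all genes. The combination gave log2FC between -0.03 (*MED12*) and 0.41 (*NF1*) in SK-LMS-1. Again 0 were called, where 0.0237% of all genes were. *NF1* went from 35.5 and 45.9 CPM in DMSO set 4 to 51.4 and 56.5, a log2FC of 0.41 (SE 0.17) with an unadjusted p of 0.0312 and an edgeR adjusted p of 0.907. It and *ATRX* were the 2 of 8 without overlap, beside 32.4% of all genes. Against all 4 SK-LMS-1 DMSO libraries, 35.5 to 57.7 CPM, the *NF1* levels after the combination did overlap. In bulk RNA a change in the share of cells and a change in RNA per cell cannot be told apart.

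**Figure D2:**
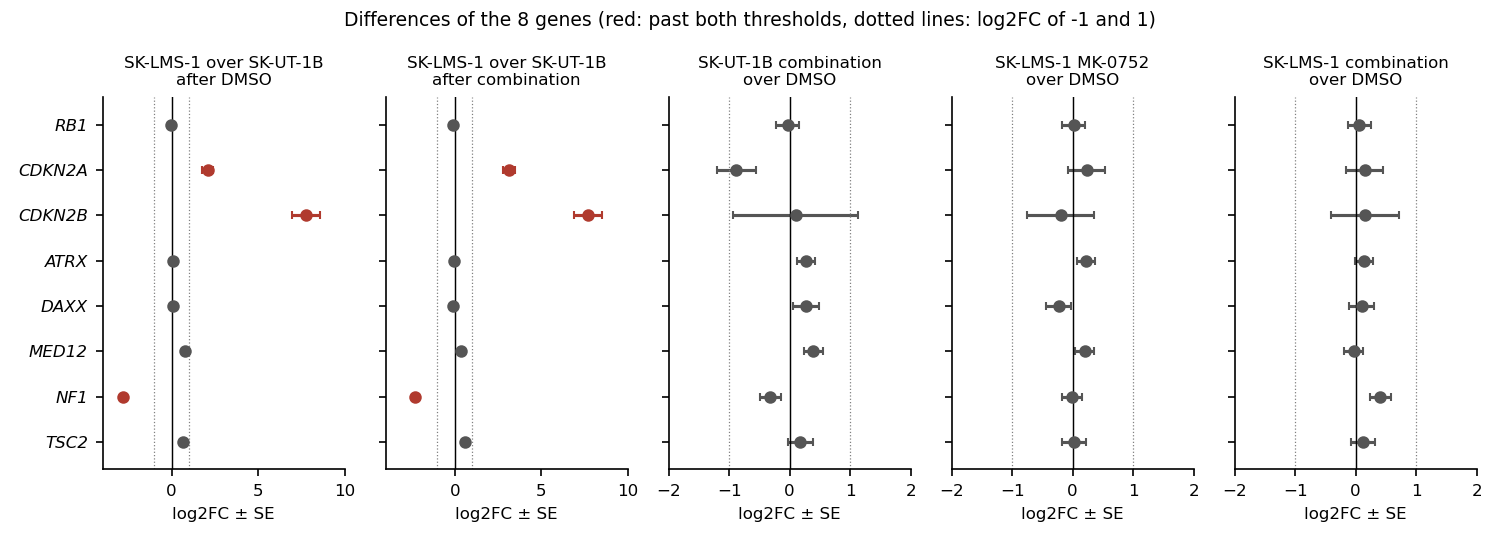
Log2 fold change of each gene (horizontal axes, with SE as bars) between the lines under DMSO and under the combination, and after each treatment against its DMSO libraries, with values past both thresholds in red. *CDKN2A*, *CDKN2B*, and *NF1* are red in both comparisons of the lines (2.08, 7.75, and -2.81 after DMSO), and no gene is red after a treatment.

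The response to the combination was set against the other line and against MK-0752 alone. Doses of the 3 drugs in the combination differed between the lines, since each line had its own IC30. The combination effects of the lines differed by 0.73 for *NF1* (SE 0.25, unadjusted p 0.00776, edgeR adjusted p = 0.461) and by 1.03 for *CDKN2A* (SE 0.45, edgeR adjusted p = 0.628) on the log2 scale. Without replicate 3 of the SK-UT-1B combination the latter became 1.66 (edgeR adjusted p = 0.00978, 0.00978 to 1.0 over 15 alternatives), in a fit with 1 library in that group, its spread taken from the other groups, that called 3.37% of all genes. For both, the value was higher in SK-LMS-1. Of the 8 genes 0 were called in this test, beside 0.232% of all genes. The effects of MK-0752 and of the combination differed in SK-LMS-1 by -0.42 (*NF1*) to 0.23 (*MED12*), and 0 of 8 were called, beside 0.0379% of all genes. The paper matched the volume of DMSO to each treatment, so the vehicle sets of SK-LMS-1 may have differed in this volume, and its part was not tested. These sets differed by -0.37 for *NF1* (SE 0.17, set 4 over set 2, unadjusted p 0.0456, edgeR adjusted p = 0.794) and by less for the other members. Here 0 of 8 were called and 0.0% of all genes, although 1197 genes had an unadjusted p under 0.05, and DESeq2 called 30. The gap between these vehicle sets for *NF1* is thus close in size to its combination log2FC in SK-LMS-1. Both values use the same DMSO libraries of set 4, so they are not independent.

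Genes around each member were examined next, within 500 kb on hg38. On chromosome 9, the genes *MTAP*, *CDKN2B-AS1*, and *MIR31HG* were named after their values were seen. *MTAP*, which encodes a methionine salvage enzyme and lies 30.1 kb from *CDKN2A*, had 951 to 1825 reads per library in SK-LMS-1 and 1638 to 2627 in SK-UT-1B (log2FC -0.46, SE 0.18, edgeR adjusted p = 0.0531 after DMSO). Reads from this neighbour were thus plentiful in the line where *CDKN2B* had 0 to 21. *CDKN2B-AS1*, the antisense RNA across *CDKN2B*, had 2 to 175 reads in SK-LMS-1 and 32 to 95 in SK-UT-1B, without a called difference (log2FC -0.49, SE 0.96). *MIR31HG*, the host gene of a microRNA, 408 kb away, followed the pattern of *CDKN2B*, with 885 to 1721 reads in SK-LMS-1 and 0 to 26 in SK-UT-1B (log2FC 6.49, SE 1.05, edgeR adjusted p = 0.00214). *IFNE*, an epithelial interferon gene, was read in SK-LMS-1 only, at 22 reads or fewer.

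*NF1* holds other genes in an intron on the opposite strand. Of these, *EVI2A* had 308 to 1666 reads in SK-LMS-1 and 0 in every SK-UT-1B library, and *EVI2B*, a membrane protein of blood cells, had 57 to 437 reads and 0. After DMSO they were at least 342-fold and 106-fold higher in SK-LMS-1, with 3 counts per SK-UT-1B library as the floor. They ran against *NF1* itself, in which they lie. Other neighbours of *NF1* were named after their values were seen. *RAB11FIP4*, an effector of RAB11, 9.56 kb away, ran with *NF1*, with 253 to 502 reads in SK-UT-1B and at most 26 in SK-LMS-1. Of 10 tested protein-coding genes within 500 kb of *NF1*, SK-LMS-1 had 2 called higher and 4 called lower after DMSO. The lower ones, apart from *RAB11FIP4*, were *ATAD5* (log2FC -2.21, SE 0.27), *COPRS* (-1.64, SE 0.22), and *UTP6* (-1.30, SE 0.24).

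Protein-coding neighbours with at most 3 counts in every library of one line but more in the other numbered 2 of 8 for *RB1*, 2 of 8 for *ATRX*, 3 of 39 for *DAXX*, 3 of 16 for *MED12*, and 6 of 51 for *TSC2*, beside 2803 (14%) of all 19960 protein-coding genes of the table. Around *NF1*, *CDKN2A*, and *CDKN2B*, described above, they numbered 2 of 12, 1 of 4, and 0 of 3. *LPAR6*, a lysophosphatidic acid receptor gene inside an intron of *RB1* on the opposite strand, had up to 179 reads in SK-LMS-1 and 0 in SK-UT-1B. *CYSLTR1*, a leukotriene receptor gene 485 kb from *ATRX*, had 86 to 262 and 0. *GJB1*, a gap junction gene 68.7 kb from *MED12*, had 0 and 192 to 339. *HLA-DPA1*, an MHC class II gene 238 kb from *DAXX*, had 194 to 487 reads and 0. These 4 had the most reads of the 16 around *RB1*, *ATRX*, *DAXX*, *MED12*, and *TSC2*. The others had no more than 92 reads in any library. They were *CYSLTR2* (*RB1*), *PGAM4* (*ATRX*), *IL2RG* (*MED12*), and *NOXO1* and *TMEM204* (*TSC2*), read in SK-LMS-1, and *IP6K3* and *HLA-DOB* (*DAXX*), *SLC7A3* (*MED12*), and *RNF151*, *RPL3L*, *HS3ST6*, and *ATP6V0C* (*TSC2*), read in SK-UT-1B. Of the tested protein-coding neighbours, those called higher and those called lower in SK-LMS-1 (DMSO) numbered 2 and 3 of 7 for *RB1*, 4 and 0 of 6 for *ATRX*, 13 and 3 of 32 for *DAXX*, 0 and 2 of 11 for *MED12*, 2 and 7 of 42 for *TSC2*, and 1 and 0 of 4 for *CDKN2A*, where the 1 is *CDKN2B*. Over all genes tested 17.0% were called higher and 14.1% lower in this comparison, so calls in both directions were common over all genes.

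**Figure D3:**
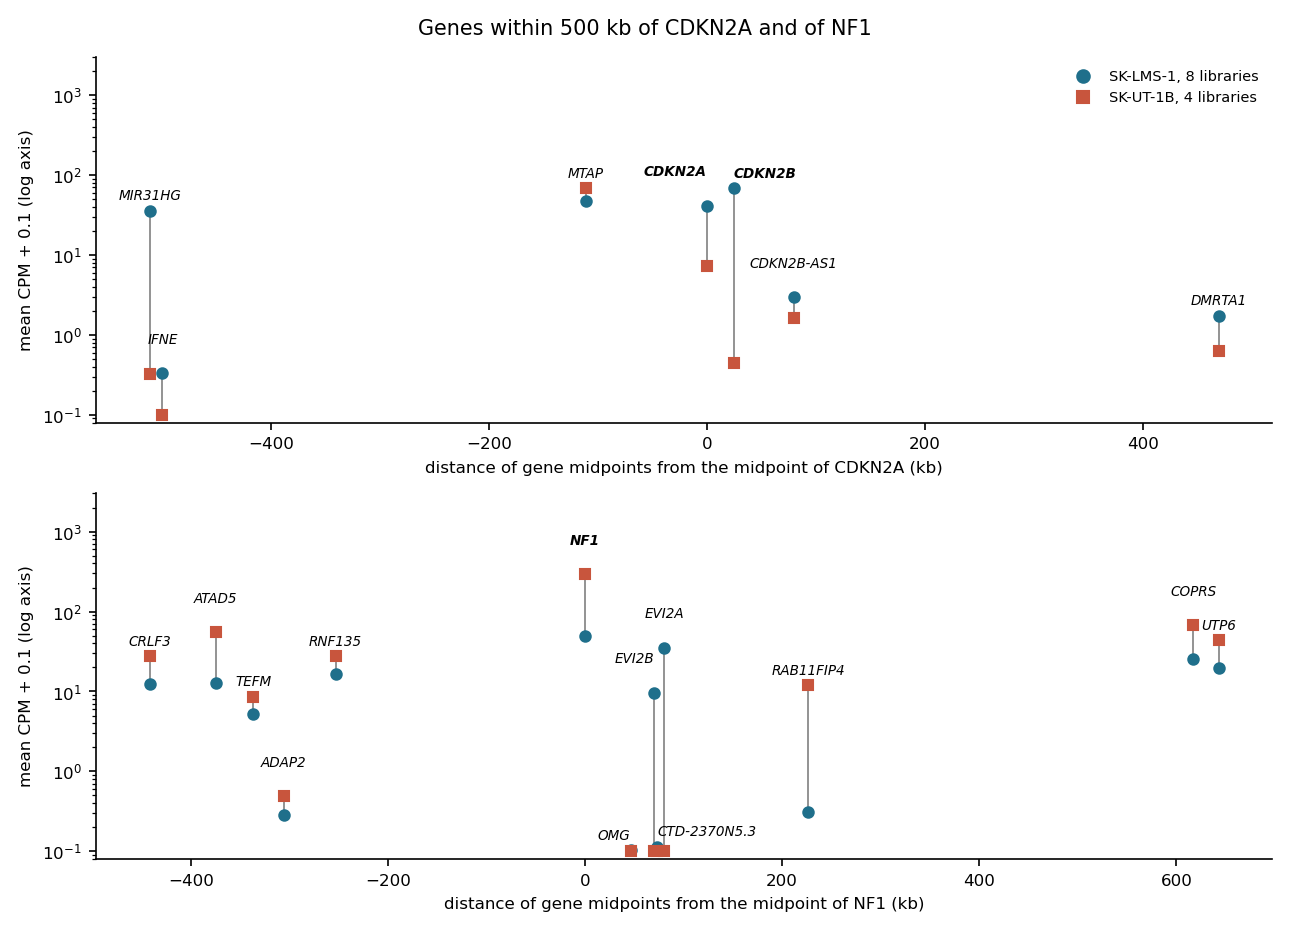
Mean CPM plus 0.1 (vertical axes, log scale) of *CDKN2A* and *CDKN2B* (upper panel), of *NF1* (lower panel) and of protein-coding genes, *CDKN2B-AS1* and *MIR31HG* within 500 kb, against the distance of each gene's midpoint from that of *CDKN2A* or *NF1* in kb, for SK-LMS-1 (circles, 8 libraries) and SK-UT-1B (squares, 4 libraries). *CDKN2B* and *MIR31HG* lie under 1 CPM in SK-UT-1B while *MTAP* between them does not, and *EVI2A* and *EVI2B* within *NF1* are at 0 there.

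For each of the 3 members called between the lines, the protein-coding genes with the most similar log2 CPM across the 12 libraries were found by Pearson's r, as a description. The points fall into 2 clusters, the lines, so a high r mostly repeats the difference between them, and 1880, 2326, and 1574 of 12678 genes had an r over 0.9 with *CDKN2A*, *CDKN2B*, and *NF1*. *CDKN2A* was most like *PLCB1*, a phospholipase C gene (r = 0.9912), and *ANKH*, a pyrophosphate transporter gene (r = 0.9905). *CDKN2B* was most like *CTSC*, the gene of cathepsin C (r = 0.9978), and *FNDC3B* (r = 0.9975). *NF1* was most like *LEF1*, a transcription factor of Wnt signaling (r = 0.9946), and *SUZ12*, a Polycomb subunit (r = 0.9937). *SUZ12* lies 555 kb from *NF1* on chromosome 17 and had 65.0 ± 6.88 CPM in SK-LMS-1 (SD, n = 8) and 221 ± 26.8 in SK-UT-1B (n = 4).

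The partners of each member were taken as 6 lists. Between the DMSO libraries of the lines, 4 of 25 regulators of RB1 and E2F had higher and 8 had lower levels in SK-LMS-1, with a median log2FC of -0.55 beside 0.0 over all genes. In this comparison 17.0% of all genes were called higher and 14.1% lower, and in that after the combination 15.6% and 9.88%, and the counts of each list stand beside these shares. *CDK6*, a kinase that p16INK4a and p15INK4b inhibit, had 164 to 225 CPM in SK-LMS-1 after DMSO and 0.935 and 1.09 in SK-UT-1B (log2FC 7.59, SE 0.22, edgeR adjusted p = 9.22e-16). Thus the line with *CDKN2B* reads near 0 also had few reads of this kinase. *CCND1*, cyclin D1, the activating partner of CDK4 and CDK6, had 1470 to 1610 CPM in SK-LMS-1 and 241 and 226 in SK-UT-1B (log2FC 2.73, SE 0.12, edgeR adjusted p = 6.05e-13). *CDKN2D*, another inhibitor of the same family, was higher as well (log2FC 3.07, SE 1.00), at 0.859 CPM in SK-UT-1B.

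Lower in SK-LMS-1 were *E2F2* and *E2F8*, an activating and a repressing E2F (log2FC -3.81, SE 0.31, and -3.09, SE 0.27), and *CCNE1*, cyclin E1, which drives CDK2 (-2.76, SE 0.43). *CCNE2*, cyclin E2 (-2.17, SE 0.43), was lower too. *CDKN2C*, whose product p18INK4c belongs to the same inhibitor family as those of *CDKN2A* and *CDKN2B*, ran opposite to both, with 26.3 to 32.8 CPM in SK-LMS-1 after DMSO and 131 and 130 in SK-UT-1B (log2FC -2.10, SE 0.17, edgeR adjusted p = 3.5e-09). After the combination, 3 of the 25 regulators were higher and 5 lower (median -0.34), and *CDK6* (8.67), *CCND1* (2.74), *E2F2* (-3.23), *CCNE1* (-2.88), *E2F8* (-2.17), and *CDKN2C* (-1.63) kept their directions. *CDKN2D* (log2FC 1.04, SE 0.99, edgeR adjusted p = 0.456) and *CCNE2* (-1.15, SE 0.53, edgeR adjusted p = 0.109) were not called there.

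**Figure D4:**
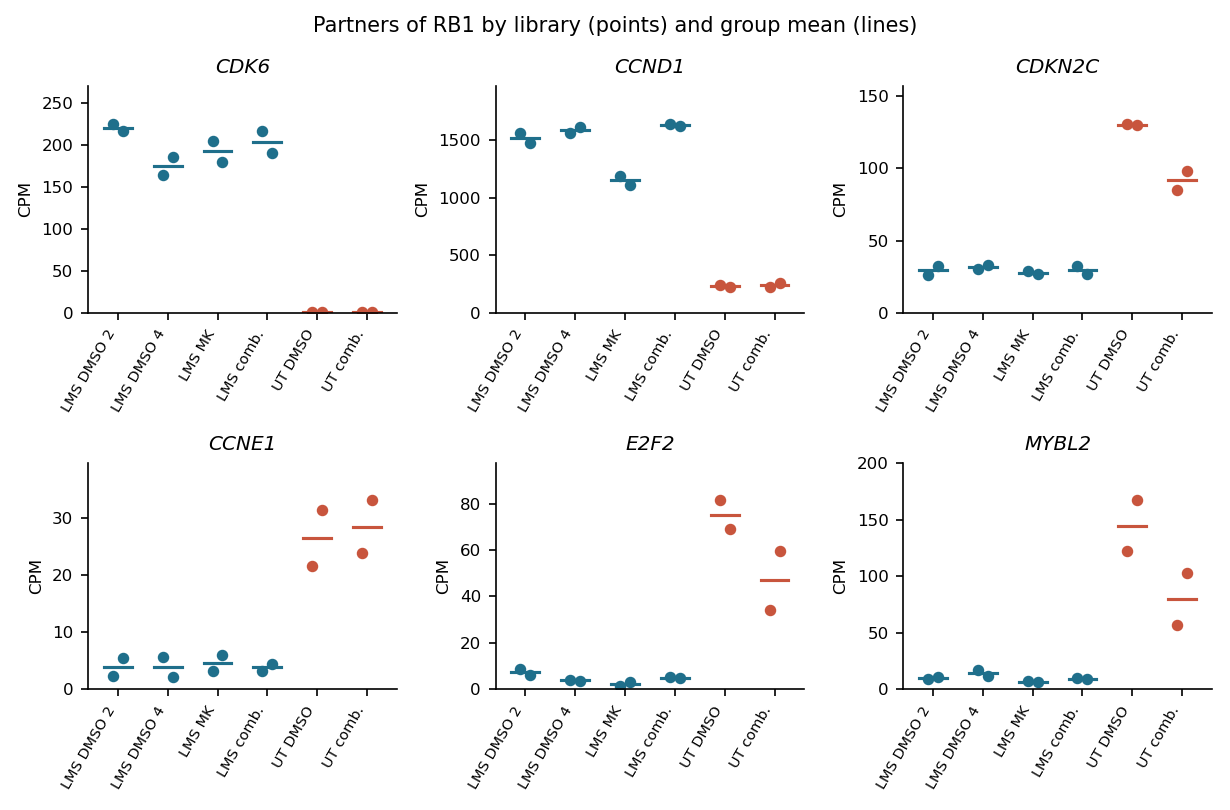
CPM (vertical axes, from 0) of 6 partners of RB1, with 1 point per library and a line at each group mean, in the groups of the plot of the 8 genes by library. *CDK6* and *CCND1* are higher in SK-LMS-1 (164 to 225 and 1470 to 1610 CPM after DMSO), and *CDKN2C*, *CCNE1*, *E2F2*, and *MYBL2* are higher in SK-UT-1B.

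E2F target genes, which RB1 represses and which encode proteins of DNA replication and of the cell cycle, were lower in SK-LMS-1. Of 30, 27 were lower and 0 higher after DMSO, with a median log2FC of -1.79, and all 30 had a negative value. The largest differences were *MYBL2*, a cell cycle transcription factor (-3.61, SE 0.24), *CDC6*, which loads the helicase (-3.10, SE 0.22), *GINS2* (-2.82, SE 0.46), *MCM6* (-2.62, SE 0.23), *MCM4* (-2.45, SE 0.15), and *CDC25A*, a phosphatase that activates CDK2 (-2.32, SE 0.32). *MYBL2* had 8.97 to 17.1 CPM in SK-LMS-1 and 122 and 167 in SK-UT-1B after DMSO. After the combination 19 of 30 were lower and 0 higher (median -1.25). These differences stood beside *RB1* levels that overlapped between the lines.

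After treatment few of these genes passed. In SK-UT-1B, where treatment and set cannot be told apart, *CDKN1A*, the p21 inhibitor, was higher after the combination (log2FC 1.18, SE 0.26, edgeR adjusted p = 0.0391). *CCNA2*, cyclin A2, was lower (-1.17, SE 0.25, edgeR adjusted p = 0.0365). *CDKN1A* went from 22.2 and 14.5 CPM to 44.3 and 38.6, and *CCNA2* from 211 and 237 to 67.6 and 131. Both calls lie near the threshold: *CDKN1A* was called in 6 of 10 alternatives (edgeR or DESeq2 adjusted p of 0.000241 to 0.592) and *CCNA2* in 7 of 10 (7.55e-10 to 0.586). With the SK-UT-1B libraries alone neither was called (adjusted p = 0.592 and 0.586), nor was any other gene. In the fit over all groups, all 30 E2F targets had a negative log2FC in SK-UT-1B after the combination (median -0.67, beside 0.0 over all genes). Of them 23 had an unadjusted p under 0.05, beside 10.5% of all genes. This list was chosen with earlier results of these data known, and its genes are not independent of each other, so counts of signs are a description. In SK-LMS-1, MK-0752 lowered *E2F8* (-1.55, SE 0.33, edgeR adjusted p = 0.0466, called in 6 of 11 alternatives) and *RRM2*, a subunit of ribonucleotide reductase (-1.17, SE 0.17, edgeR adjusted p = 0.00226, called in all 11), and 29 of 30 E2F targets had a negative value (median -0.50), 14 of them with an unadjusted p under 0.05, beside 6.41% of all genes. *RRM2* had 106 and 83.8 CPM after MK-0752 and 211 and 217 in DMSO set 2. After the combination in SK-LMS-1, 0 genes of these 2 lists passed, with 4 of 30 targets and 1 of 25 regulators at an unadjusted p under 0.05 (4.33% of all genes), and 28 of 30 targets had a negative value (median -0.18, beside 0.03 over all genes).

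**Figure D5:**
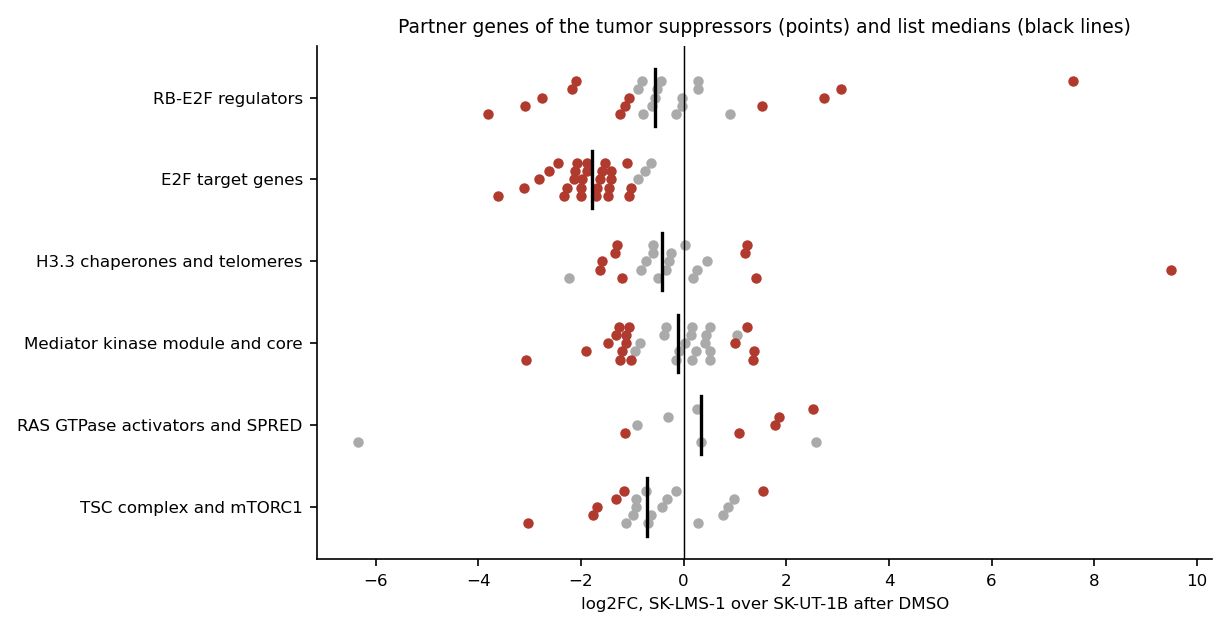
Log2 fold change between the lines after DMSO (horizontal axis, positive where SK-LMS-1 is higher) of each tested gene of the 6 partner lists, in red where it passed both thresholds, with the list median as a black line. The E2F targets lie wholly below 0 with a median of -1.79, the other medians lie between -0.72 and 0.33, and *SP100* (9.50) and *CDK6* (7.59) lie farthest to the right.

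Among 22 tested genes that work with ATRX and DAXX on H3.3 and telomeres, SK-LMS-1 had higher levels of 4 and lower levels of 5 after DMSO (median -0.42). *SP100*, a component of PML nuclear bodies, where DAXX and ATRX reside, had 94.4 to 126 CPM in SK-LMS-1 after DMSO and 0.0 and 0.265 in SK-UT-1B, that is 2327 to 4410 reads against 0 and 10 (log2FC 9.50, SE 0.77, edgeR adjusted p = 1.36e-05). *PML* itself was higher in SK-LMS-1 as well (1.23, SE 0.25). Of the shelterin complex, which caps telomeres, *POT1* was higher (1.41, SE 0.26), as was *TINF2* (1.19, SE 0.22), and *TERF2* was lower (-1.34, SE 0.16). *CBX5*, the heterochromatin protein HP1 alpha (-1.63, SE 0.11), *ASF1B*, a histone chaperone (-1.59, SE 0.21), and *SETDB1*, a histone H3 methyltransferase (-1.30, SE 0.20), were lower. After the combination 1 was higher, *SP100* (7.47), and 4 lower. After treatments 0 of 22 passed, with 6 at an unadjusted p under 0.05 in SK-UT-1B, and 4 and 2 in SK-LMS-1 with MK-0752 and with the combination, where 10.5%, 6.41%, and 4.33% of all genes were.

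Of 32 Mediator genes, SK-LMS-1 had higher levels of 4 and lower levels of 11 after DMSO (median -0.12). After the combination 3 were higher and 8 lower (median -0.31), and this count of lower genes moved when a single library was left out. In the kinase module of MED12, the paralog *MED12L* was lower (log2FC -3.06, SE 0.92, edgeR adjusted p = 0.0175) at 0 to 102 reads per SK-LMS-1 library, and so was the kinase *CDK8* (-1.24, SE 0.25), whereas its paralog *CDK19* (1.37, SE 0.17) and *MED13L* (1.24, SE 0.17) were higher. Outside the module *MED28* (-1.90, SE 0.17), *MED24* (-1.48, SE 0.20), and *MED14* (-1.32, SE 0.15), which joins the parts of the complex, were lower, and *MED10* (1.36, SE 0.31) was higher. Members of the complex thus differed in both directions. After treatments 0 of 32 passed, with 0, 1, and 2 at an unadjusted p under 0.05 for the SK-UT-1B combination, SK-LMS-1 with MK-0752, and the SK-LMS-1 combination.

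Beside *NF1*, 11 tested genes of other RAS GTPase activating proteins and of the SPRED proteins, which bring neurofibromin to the membrane, held 4 higher and 1 lower in the DMSO libraries of SK-LMS-1 (median 0.33). The higher ones were *SPRED3* (log2FC 2.52, SE 0.37), *RASA1* (1.85, SE 0.19), *RASAL2* (1.78, SE 0.25), and *RASA3* (1.08, SE 0.23), all opposite to *NF1*. *SPRED1* (-1.14, SE 0.13) was lower, as was *NF1*. After the combination 4 were higher, the same genes, and 2 lower, *SPRED1* (-1.07) and *DAB2IP* (-1.13). Of the 11, 0 passed after any treatment, and 0 had an unadjusted p under 0.05.

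The 20 genes around TSC2 and mTORC1 held 1 higher and 5 lower after DMSO (median -0.72), which is 6 of 20 called and near the 31.1% of all genes. *RICTOR*, the subunit that defines mTORC2, was higher (log2FC 1.55, SE 0.18), and *DDIT4*, which acts through TSC2 to lower mTORC1 activity, was lower (-3.03, SE 0.29), as were *SESN1* (-1.77, SE 0.38) and *SESN3* (-1.69, SE 0.20), sensors that restrain mTORC1, *MLST8* (-1.32, SE 0.23), and *TBC1D7*, the third subunit of the TSC complex (-1.16, SE 0.38). After the combination 2 were higher and 4 lower (median -0.39), with *DDIT4* at -3.75. The count of lower genes after DMSO ranged from 3 to 8 over the alternatives. After each treatment 0 of 20 passed, and 1 had an unadjusted p under 0.05 in each.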

How the data were processed

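The authors prepared stranded, ribosome-depleted libraries, sequenced them as single reads of 75 bases, trimmed them with Trim Galore 0.3.7, aligned them to hg38 with STAR 2.7.9a, filtered ribosomal RNA with SortMeRNA, and counted with STAR. The deposited table holds these raw counts per gene, not normalized. Names and coordinates were taken from GENCODE 44, in which 60507 of 60649 identifiers were found. Columns without a line prefix were matched to the SK-LMS-1 titles. The annotation and strand setting used for counting are not given in the sources used here.

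The 12 libraries formed 6 groups of 2. Counts were tested with edgeR 4.0.16 in R 4.3.3 (TMM, filterByExpr, robust quasi-likelihood fit over all groups, 21114 genes), with Benjamini-Hochberg adjustment over all genes tested. A gene was called at an adjusted p below 0.05 and a log2FC of 1 or more in size. The test was tested on simulated data. For the SK-UT-1B combination it recovered 50% of genes simulated at a log2FC of 1.5 and 82% of those at 3. Between groups simulated without a change it called 0 genes. The line comparison after DMSO used both SK-LMS-1 DMSO sets, and each SK-LMS-1 treatment was compared with the DMSO libraries of its own set (MK-0752, set 2; the combination, set 4). The 8 genes, the 6 partner lists, and the marker lists were chosen with earlier results of these data known. Beyond the 8 genes, the text names up to 6 called genes per list and comparison by size (*CDKN2C* by its rank after the combination). *CCNE2*, *PML*, *TINF2*, *CDK8*, and *MED13L* were added after their values were seen. It also names neighbours within 500 kb with at most 3 counts in every library of one line. The 2 most similar genes with a mean of at least 1 CPM are named too. Alternatives were DESeq2 1.42.0, its size factors in edgeR, every gene with a count, genes with a mean of 50 counts or more, fits of the compared libraries alone, a replicate block, each library left out, and the 4 DMSO libraries of SK-LMS-1 as 1 control. Those for the partner lists and their genes were chosen after seeing the data. Where a library is left out, the 1 left in its group is assumed to vary like the other groups. At 25250057 to 40709885 counts per library, 3 counts, taken as the floor, correspond to a mean of 0.093 CPM in SK-UT-1B.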

Additional observations from a re-analysis of the deposited data

Results flagged for a closer look

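In the 4 SK-LMS-1 DMSO libraries, *TSC2* lay at 97.4 to 98.7 CPM in 3 and at 109 CPM in replicate 2 of set 4. The gap of this library to the nearest other was 0.887 of the whole range, above Dixon's critical value for 4 samples at the 95% level. Chance gives such a flag in about 1 of 20 groups, and 8 genes were examined.

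The effect of the combination on *NF1* differed between the lines by 0.73 on the log2 scale. In SK-LMS-1 both treated libraries lay above both DMSO libraries of set 4, and in SK-UT-1B both lay below. The test of the difference gave an unadjusted p of 0.00776 and an edgeR adjusted p of 0.461 (0.0676 to 0.72 over 15 alternatives), so it did not pass. In SK-UT-1B the treated and DMSO libraries carry different set numbers, and the DMSO sets of SK-LMS-1 differed by -0.37 for this gene. The part of the set in the difference cannot be told apart in SK-UT-1B.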

How the results depend on the processing

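In the comparisons of the lines, *CDKN2A*, *CDKN2B*, and *NF1* were called under every alternative run, with log2FC after DMSO of 1.91 to 2.17, 7.56 to 7.83, and -2.96 to -2.76. After the combination *CDKN2A* ranged from 2.68 to 3.79 and *CDKN2B* from 6.54 to 14.18, the highest of each without replicate 3 of the SK-UT-1B combination, for *CDKN2B* a fitted value at 0 reads and not a bound. With single libraries left out, the number of members called ranged from 0 to 2 for the combination in SK-UT-1B and from 0 to 2 for the combination effect between the lines, with the 2 in both cases without that same library, which leaves 1 library in its group, and 0 members were called for MK-0752, for the combination in SK-LMS-1, and for the DMSO sets. Of the 8 genes' values, 37 lay within 1 SE of 0, and these changed sign in 69 of 433 alternatives. List counts moved by over 1.5 times in 13 of 264 alternatives. Among them, TSC and mTORC1 genes called lower after DMSO ranged from 3 to 8, and Mediator genes called lower after the combination fell from 8 to 4 without replicate 2 of the SK-LMS-1 combination.

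Counts over all genes depended more on the processing. DESeq2 called 369 genes for the combination in SK-UT-1B, 131 for MK-0752, and 30 for the combination in SK-LMS-1, where edgeR called 118, 53, and 5. Without a filter the counts were 420, 175, and 73, with a mean of at least 50 counts 81, 35, and 1, and with the compared libraries alone 0, 99, and 0. For the combination effect between the lines (49 in edgeR) these settings gave 143, 303, 24, and 20. For MK-0752 against the combination (8) they gave 41, 89, 3, and 27, and for the DMSO sets (0) 30, 76, 0, and 0. With each library left out in turn, the counts ranged from 328 to 1056, 116 to 270, and 62 to 247 for the treatments, 282 to 828 and 70 to 237 for the effects, and 79 to 327 for the DMSO sets. The causes were not tested.

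Equal replicate numbers did not pair the libraries (r of -0.039 to 0.019 between their deviations). With the replicate block, 3 members were still called in each comparison of the lines and 0 in the others, and the SK-UT-1B combination had 186 called genes and the DMSO sets 5. Per-length levels moved by more than 1 SD of the libraries in 15 of 16 values when the longest transcript replaced all exons. With 2 libraries per group and 0 to 21 reads, the interval of *CDKN2B* for the SK-UT-1B combination spanned -1.91 to 2.12.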
